A study of Homo sapiens with 12 samples.

Results

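The 55 genes described here act in mitosis and chromosome segregation, and were taken by symbol from a list: cyclins and kinases of mitotic entry, the spindle checkpoint and anaphase machinery, the centromere and kinetochore, condensin and other chromosome proteins, mitotic kinesins, spindle proteins and cytokinesis factors. All 55 were found among the 63187 genes of the deposited table. MDA-MB-231 is an established cell line from a human breast adenocarcinoma. Its RNA was sequenced after 36 h in 4 media that all held 3% fetal bovine serum; the cells had earlier been grown in a high-glucose salt solution with more serum. The deficient medium held neither glucose nor glutamine, the glucose-only medium held 25 mM glucose, the glutamine-only medium held 4 mM glutamine, and the full medium held 25 mM glucose with 4 mM glutamine. Each medium had 3 libraries, lettered A, B and C. The labels give all 12 libraries 1 batch number and do not say whether the letters mark separate cultures, so that the p-values measure the spread between libraries, which may be technical.

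Cyclin-dependent kinase 1, bound by cyclin A and then cyclin B, drives a cell into mitosis. Condensed chromosomes are captured by spindle microtubules at their kinetochores, the checkpoint holds anaphase until capture is complete, and the anaphase-promoting complex then releases the sister chromatids. Most of these genes are transcribed in a wave late in the cell cycle, under the transcription factors FOXM1 and B-MYB with the MuvB complex, so that cycling cells carry much of their RNA in G2 and mitosis. In RNA from a whole culture, fewer cells in that phase and less RNA in each such cell cannot be told apart.

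Values below are normalized counts: the reads of a gene over the size factor of its library. The libraries held 875033 to 1473587 reads in genes, and 1 read was worth 0.661 to 1.30 normalized counts. Genes were tested where at least 3 of 12 libraries reached a normalized count of 10, which 9270 genes did, among them 51 members. HMMR, ESPL1, NUSAP1 and KIF15 were too low to be tested, and CENPA and PRC1 passed only through the full libraries, which left 49 members that passed without them. Mitochondrial genes took 28.2% to 33.7% of reads in deficient, 28.9% to 32.2% in glucose-only, 25.4% to 28.2% in glutamine-only and 18.5% to 22.6% in full libraries, and protein-coding genes between 41.6% and 59.8% over all libraries. The RNA fitted the label of the line: VIM reached 1047, and ESR1, PGR, CDH1 and GATA3 all stayed under 10. No library reached 10 for any of 6 fibroblast, 6 blood cell or 3 adipocyte markers. Of 4 endothelial markers, 2 stayed under 10 and PECAM1 had the highest value, 19.7. KDR had 14.3, 15.7 and 12.4 in deficient libraries and stayed under 10 in the other media.

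Mitotic genes were lower in each of the 3 restricted media than in the full medium, and lowest of all where both nutrients were missing. Summed over the 55 members, the normalized count was 1620 ± 56.9 in deficient, 2768 ± 81.4 in glucose-only, 2115 ± 23.8 in glutamine-only and 5831 ± 153 in full libraries (SD, n = 3 each). The 3 libraries of each medium kept apart from those of the other media in this sum. Of the protein-coding reads of nuclear genes alone, the members took 0.301 ± 0.00718% in deficient, 0.619 ± 0.0183% in glucose-only, 0.443 ± 0.00614% in glutamine-only and 1.19 ± 0.0292% in full libraries. The order of the media was the same in this share. For the median member the mean was 21.9% of the full mean in deficient, 45.9% in glucose-only and 36.5% in glutamine-only libraries.

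With limma over all 9270 genes at an adjusted p under 0.05, 50 of 51 tested members were lower in deficient than in full medium, where 25.5% of all tested genes were lower. In glucose-only medium 49 members were lower than in full medium, against 13.5% of all tested genes, and in glutamine-only medium 49 were lower, against 11.6%. No member was higher, where 26.3%, 9.44% and 10.8% of all tested genes were in deficient, glucose-only and glutamine-only medium. At least 2-fold lower were 47 members in deficient (12.9% of all genes), 34 in glucose-only (4.4%) and 45 in glutamine-only libraries (3.73%). The median log2 change of the tested members was -2.12 in deficient, -1.11 in glucose-only and -1.46 in glutamine-only against full medium, while that of all tested genes was 0.01, -0.03 and -0.01. Of the 49 members that passed without the full libraries, 48 were lower in deficient, 47 in glucose-only and 49 in glutamine-only medium. These 3 comparisons share the full libraries. The members were chosen with earlier results of these data known, so the counts describe the list and are not independent support. The choice of scale matters for such counts: scaling the libraries to equal totals put the median of all genes at -0.37 in deficient, -0.24 in glucose-only and -0.12 in glutamine-only against full medium, and raised the lower share of all called genes to 76.4%, 84.5% and 68.4%, against 49.2%, 58.8% and 51.8% on the deposited scale. With equal totals 51, 49 and 49 members were lower.

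**Figure D1:**
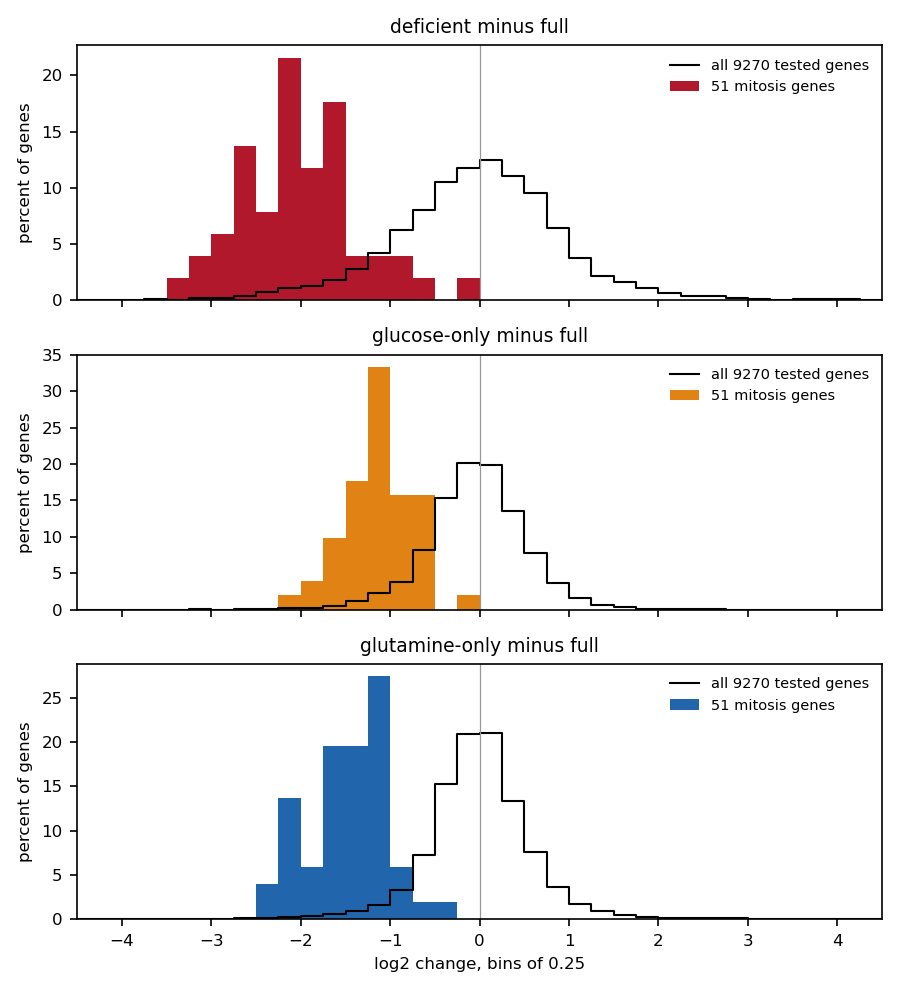
Distribution of log2 changes against full medium for the 51 tested mitosis genes (filled bars) and all 9270 tested genes (line), as percent of genes in bins of 0.25 on the log2 scale, with deficient on top, then glucose-only and glutamine-only. The members sit to the left of 0 in all 3 panels, with medians of -2.12, -1.11 and -1.46, while all genes centre near 0.

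In 51 of 55 members every full library lay above all 9 libraries of the other media. The 51 include CENPA and PRC1, which passed the filter only through the full libraries, and the untested ESPL1. For pairs of media, 50 tested members had every deficient library under every full one (28.2% of all tested genes did), 50 had every glucose-only library under every full one (21.5%), and 51 had every glutamine-only library under every full one (21%). Of the 49 members that passed without the full libraries, 48, 48 and 49 did so in deficient, glucose-only and glutamine-only medium. The 4 members without every full library above all others were BUB3 and the untested HMMR, NUSAP1 and KIF15. In 38 members the means ran deficient, glutamine-only, glucose-only, full from low to high, and the deficient mean was the lowest in 43 members, the glutamine-only mean in 11 and the glucose-only mean in 1. The last was PTTG1, at 34.4 ± 13.03 in glucose-only and 34.6 ± 2.42 in deficient libraries (SD, n = 3 each), an order within the spread. These counts hold the untested members too. KIF15 is in the 38 and the 43, although it tied with no reads in deficient and glutamine-only libraries. In 22 members all 3 deficient libraries lay under the other 9. The counts of 51, 38, 43 and 22 were not made over all tested genes, so they have no share to stand beside. They were counted on the deposited scale alone. With equal totals the members' median log2 change in deficient against glutamine-only medium moved from -0.56 to -0.83. Orders set by a small margin, as in ANLN (means of 80.1 in deficient and 79.9 in glutamine-only libraries), could therefore change with the scale.

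Because most members moved together, their promoters are shown for a few of them: 3 textbook G2/M genes (CCNB1, CCNB2, PLK1), the gene with the largest fall in deficient medium (KIF20A), the most used proliferation marker (MKI67) and 1 of the genes with the smallest falls in deficient medium (CKAP5). The CHR element (cell cycle genes homology region), the site bound by MuvB complexes, has the letters TTTGAA, or TTTAAA in some genes, and often stands downstream of a CCAAT box, the site of NF-Y. The sequences are the 150 bases before the RefSeq start in GRCh38.p14, 5′ to 3′ on the gene's strand, with CHR words and CCAAT in either orientation in capitals. They lie at chr5:69167000-69167149 (plus strand) for CCNB1, chr15:59104996-59105145 (plus) for CCNB2, chr16:23678739-23678888 (plus) for PLK1, chr5:138178962-138179111 (plus) for KIF20A, chr10:128126424-128126573 (minus) for MKI67 and chr11:46846281-46846430 (minus) for CKAP5.
CCNB1: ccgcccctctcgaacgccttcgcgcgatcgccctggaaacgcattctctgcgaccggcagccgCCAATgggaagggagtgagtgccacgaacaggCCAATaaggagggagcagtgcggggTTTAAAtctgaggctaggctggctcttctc
CCNB2: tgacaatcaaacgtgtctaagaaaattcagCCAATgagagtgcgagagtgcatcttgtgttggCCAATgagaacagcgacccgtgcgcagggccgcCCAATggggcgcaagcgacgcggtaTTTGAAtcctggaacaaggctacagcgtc
PLK1: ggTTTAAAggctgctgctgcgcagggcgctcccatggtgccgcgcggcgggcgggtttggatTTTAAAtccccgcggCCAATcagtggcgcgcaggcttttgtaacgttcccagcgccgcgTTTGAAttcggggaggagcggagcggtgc
KIF20A: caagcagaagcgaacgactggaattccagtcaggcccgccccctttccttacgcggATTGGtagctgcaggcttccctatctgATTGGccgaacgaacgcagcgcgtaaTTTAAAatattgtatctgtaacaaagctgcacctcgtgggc
MKI67: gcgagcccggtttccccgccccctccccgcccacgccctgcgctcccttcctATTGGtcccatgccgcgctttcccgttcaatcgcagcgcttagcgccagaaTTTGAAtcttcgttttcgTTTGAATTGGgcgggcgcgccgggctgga
CKAP5: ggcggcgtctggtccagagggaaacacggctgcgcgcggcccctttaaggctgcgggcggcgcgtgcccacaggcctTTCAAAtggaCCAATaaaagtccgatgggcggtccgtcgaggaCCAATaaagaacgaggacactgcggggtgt
All 6 hold at least 1 CHR word and at least 1 CCAAT word in this stretch, and in MKI67 a CHR word runs into a reversed CCAAT. In CKAP5 the only CHR word of the stretch stands upstream of its CCAAT words, not downstream. RefSeq promoter windows of 300 bases, from 250 before to 50 after the start, were at hand for 46 of the 55 members. On both strands, TTTGAA or TTTAAA was found in 41 of 46 member windows (89.1%), against 24.3% of 27305 windows of all genes and 15.6% of 7281 windows of tested genes. CCAAT was found in 34 member windows (73.9%), against 35.7% of all windows, and both words in 30 (65.2%), against 9.49%. A CHR word from 75 bases before to 25 after the start was present in 34 members. This count by position was not made for other windows, so it shows no preference for that stretch. No CHR word was found in the windows of AURKB, BUB1, CCNA2, CKAP2 and SGO1. The windows of AURKB, CKAP2, SGO1 and SMC2 stand at a start 350, 510, 680 and 6046 bases inside the 5′ end of the gene in RefSeq, and the other 42 stand at that end. These letters are a description of the windows and not evidence of a bound site.

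Cyclins, CDK1, the mitotic kinases and FOXM1 all fell in all 3 media: 7 of 7 members were lower in each comparison with full medium, with median log2 changes of -2.22 in deficient, -1.28 in glucose-only and -1.67 in glutamine-only libraries. CCNB1, the main B-type cyclin of mitotic entry, had 28.6, 22.9 and 25.6 in deficient, 65.04, 71.3 and 39.98 in glucose-only, 44.2, 50.1 and 40.1 in glutamine-only and 113, 127 and 139 in full libraries. Its log2 change was -2.25 ± 0.18 (adjusted p = 1.35e-11) in deficient, -1.13 ± 0.18 (adjusted p = 2.11e-05) in glucose-only and -1.47 ± 0.18 (adjusted p = 2.57e-07) in glutamine-only against full medium. Full libraries stood well above the others for this cyclin, and the deficient ones lay under all of them. CDK1, the kinase that the mitotic cyclins activate, had 36.4, 25.4 and 34.2 in deficient, 59.02, 49.2 and 54.1 in glucose-only, 32.5, 39.5 and 31.7 in glutamine-only and 101, 116 and 119 in full libraries. Deficient and glutamine-only libraries overlapped, and both stood under the glucose-only libraries. Its changes against full medium were -1.79 ± 0.16 in deficient, -1.04 ± 0.16 in glucose-only and -1.67 ± 0.16 in glutamine-only libraries. CCNA2, the A-type cyclin of S phase and G2, had 6.51, 8.45 and 8.54 in deficient, 19.3, 32.5 and 18.8 in glucose-only, 8.12, 12.5 and 8.39 in glutamine-only and 51.6, 59.2 and 59.6 in full libraries. It fell more than any other of the 7 in deficient (-2.72 ± 0.27, adjusted p = 1.65e-09) and glutamine-only medium (-2.46 ± 0.27), and by less in glucose-only medium (-1.28 ± 0.27). FOXM1, the transcription factor of the late cell cycle wave, had 15.6, 13.3 and 15.5 in deficient, 37.3, 27.2 and 28.2 in glucose-only, 30.7, 31.8 and 22.4 in glutamine-only and 76.7, 56.4 and 69.7 in full libraries, and its change was -2.11 ± 0.20 in deficient, -1.11 ± 0.20 in glucose-only and -1.23 ± 0.20 in glutamine-only medium. The deficient libraries of FOXM1 lay under all others. PLK1, the polo-like kinase of centrosome maturation and spindle assembly, was read at 6.51, 13.3 and 5.44 in deficient, 7.23, 15.7 and 12.9 in glucose-only, 15.3, 13.5 and 7.46 in glutamine-only and 44.96, 46.1 and 31.2 in full libraries. Its 3 restricted media overlapped, and their changes were -2.22 ± 0.34 in deficient, -1.73 ± 0.34 in glucose-only and -1.71 ± 0.34 in glutamine-only libraries. AURKA, the centrosomal Aurora kinase, changed by -2.63, -1.52 and -2.02, and the other B-type cyclin CCNB2 by -2.12, -1.57 and -1.29, in deficient, glucose-only and glutamine-only libraries. In GENCODE 29, which may not be the annotation used for counting, 15.9% of the exonic bases of FOXM1 lie opposite ITFG2 and 9.08% of those of CCNA2 opposite EXOSC9, and the strand setting of the counting is not given in the sources used here.

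**Figure D2:**
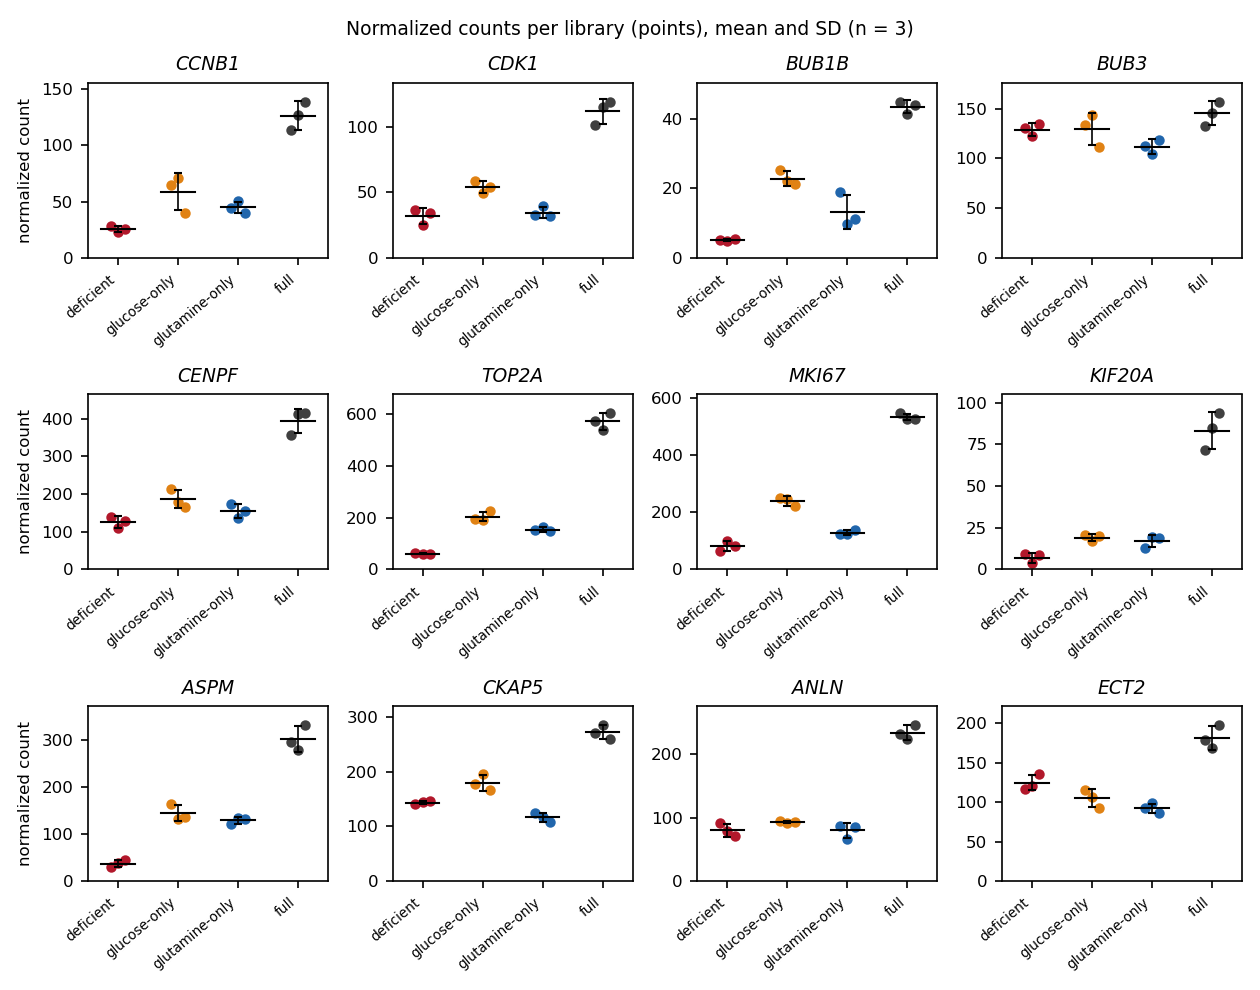
Normalized counts of 12 members in each library (points), with the mean (long bar) and SD (whisker) of 3 libraries, for deficient, glucose-only, glutamine-only and full medium from left to right. Full libraries are highest in 11 of the 12 panels, BUB3 changes little, and the order of the other 3 media differs between genes, with ECT2 highest in deficient among them.

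Most checkpoint and anaphase genes fell, while BUB3 kept most of its level in every medium. In this group 8 of 9 tested members were lower in deficient, 7 in glucose-only and 9 in glutamine-only medium, with medians of -1.66, -1.08 and -1.46. BUB3, a checkpoint protein that also has a role outside mitosis in RNA splicing, had 130.2, 122 and 134 in deficient, 134, 144 and 112 in glucose-only, 113, 104 and 118 in glutamine-only and 133, 146 and 157 in full libraries. Deficient and glucose-only libraries overlapped the full ones, and the glutamine-only libraries lay under them. The change was -0.17 ± 0.12 (adjusted p = 0.225) in deficient, -0.17 ± 0.12 (adjusted p = 0.321) in glucose-only and -0.37 ± 0.12 (adjusted p = 0.0184) in glutamine-only medium, and the last call ended without full B or C or glutamine-only B (adjusted p between 0.0515 and 0.0906). With other scales BUB3 was lower in deficient medium too, at -0.57 (adjusted p = 0.00143) with equal totals, -0.29 (adjusted p = 0.0471) with quantile normalization and -0.30 (adjusted p = 0.0271) with equal totals of nuclear protein-coding reads. BUB1B, which encodes the checkpoint kinase-like protein BubR1, had 5.21, 4.83 and 5.44 in deficient, 25.3, 22.005 and 21.2 in glucose-only, 18.9, 9.63 and 11.2 in glutamine-only and 44.96, 41.4 and 44.03 in full libraries. The deficient libraries lay far under all others and did not exceed 5.44. BUB1B changed by -2.85 ± 0.27 (adjusted p = 7.92e-10) in deficient, -0.90 ± 0.27 (adjusted p = 0.0163) in glucose-only and -1.69 ± 0.27 (adjusted p = 2.63e-05) in glutamine-only medium; the glucose-only call ended without full A or C or glucose-only C (adjusted p between 0.0536 and 0.0596). TTK, the checkpoint kinase also called Mps1, had 6.51, 6.04 and 7.76 in deficient, 7.23, 15.7 and 14.1 in glucose-only, 6.31, 12.5 and 11.2 in glutamine-only and 35.04, 43.2 and 37.6 in full libraries, with the 3 restricted media overlapping. Its changes of -1.63 ± 0.32 in glucose-only and -1.89 ± 0.32 in glutamine-only medium were the largest of the group there. UBE2C, the ubiquitin-conjugating enzyme of the anaphase-promoting complex, had 26.03, 32.6 and 29.5 in deficient, 52.998, 55.5 and 89.4 in glucose-only, 51.4, 48.2 and 35.4 in glutamine-only and 95.2, 111 and 99.1 in full libraries. It changed by -1.76 ± 0.18 (adjusted p = 2.58e-09) in deficient, -0.66 ± 0.18 (adjusted p = 0.00807) in glucose-only and -1.17 ± 0.18 (adjusted p = 1.21e-05) in glutamine-only medium, and its glucose-only call ended without glucose-only A or B (adjusted p between 0.0523 and 0.063). PTTG1, or securin, which holds separase inactive until anaphase, had 33.8, 32.6 and 37.3 in deficient, 46.98, 20.96 and 35.3 in glucose-only, 28.9, 56.8 and 44.7 in glutamine-only and 102, 99.6 and 101 in full libraries. It was low in all 3 restricted media, which overlapped each other. CDC20, the activator of the complex in early anaphase, had 28.6, 18.1 and 23.3 in deficient, 26.5, 40.9 and 22.3 in glucose-only, 19.8, 21.2 and 26.1 in glutamine-only and 80.7, 68.6 and 49.5 in full libraries. Changes of CDC20 were -1.46 ± 0.23, -1.14 ± 0.23 and -1.51 ± 0.23 in deficient, glucose-only and glutamine-only libraries. The shugoshin SGO1, which guards centromeric cohesin, had 6.51, 9.66 and 10.1 in deficient, 13.2, 9.43 and 12.9 in glucose-only, 1.80, 10.6 and 11.2 in glutamine-only and 19.2, 16.9 and 22.02 in full libraries. Its change was -1.08 ± 0.41 (adjusted p = 0.0294) in deficient, a call that ended without deficient A or full A or C (adjusted p between 0.067 and 0.106), -0.67 ± 0.41 (adjusted p = 0.255) in glucose-only and -1.46 ± 0.41 (adjusted p = 0.00969) in glutamine-only medium, a call that ended without glutamine-only A (adjusted p = 0.126). In GENCODE 29 17.7% of its exonic bases lie opposite SGO1-AS1. BUB1 and SGO2 fell in all 3 media, with changes of -1.66 and -1.88 on the log2 scale in deficient medium. ESPL1, the protease separase, was too low for a test, with 1.30, 3.62 and 2.33 in deficient, 6.02, 4.19 and 4.70 in glucose-only, 1.80, 2.89 and 1.86 in glutamine-only and 9.26, 12.2 and 14.7 in full libraries; every full library was nevertheless above the other 9.

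All 9 centromere, kinetochore and chromosomal passenger genes were lower in deficient and in glucose-only than in full medium, and 8 were in glutamine-only, with medians of -2.52, -1.14 and -1.46. The 9 include CENPA, which passed the filter only through the full libraries. CENPF, a large protein of the outer kinetochore, had the most reads of the group, with 139, 109 and 129.7 in deficient, 214, 180.2 and 167 in glucose-only, 173, 137 and 154 in glutamine-only and 356, 412 and 415 in full libraries. The glutamine-only libraries overlapped both other restricted media, and all lay under the full libraries. Its changes were -1.64 ± 0.12 (adjusted p = 1.99e-12) in deficient, -1.07 ± 0.12 (adjusted p = 5.92e-08) in glucose-only and -1.35 ± 0.12 (adjusted p = 5.62e-10) in glutamine-only medium. CENPE, the kinetochore kinesin that moves chromosomes to the equator, had 31.2, 19.3 and 31.8 in deficient, 44.6, 31.4 and 34.1 in glucose-only, 26.2, 29.9 and 31.7 in glutamine-only and 93.2, 72.4 and 74.3 in full libraries. CENPE had the smallest fall in deficient medium, -1.53 ± 0.20. KNL1, the scaffold that recruits the BUB proteins, had 6.51, 18.1 and 16.3 in deficient, 38.5, 31.4 and 18.8 in glucose-only, 27.1, 34.7 and 26.1 in glutamine-only and 102, 70.5 and 75.2 in full libraries. Deficient libraries of KNL1 stayed under all others, and the change was -2.61 ± 0.28 in deficient, -1.49 ± 0.28 in glucose-only and -1.46 ± 0.28 in glutamine-only medium. NDC80, a subunit of the complex that grips microtubules, had 3.90, 12.1 and 7.76 in deficient, 26.5, 30.4 and 23.5 in glucose-only, 15.3, 11.6 and 13.05 in glutamine-only and 52.9, 52.6 and 77.1 in full libraries. Deficient and glutamine-only libraries overlapped while the glucose-only ones stood above both, with changes of -2.88 ± 0.29 (adjusted p = 1.68e-09) in deficient, -1.14 ± 0.29 in glucose-only and -2.10 ± 0.29 in glutamine-only medium. Its partner NUF2 had 10.4, 3.62 and 8.54 in deficient, 19.3, 15.7 and 15.3 in glucose-only, 9.02, 6.74 and 13.05 in glutamine-only and 49.6, 36.7 and 48.6 in full libraries, the same arrangement of the media, and changes of -2.52 ± 0.32, -1.37 ± 0.32 and -2.15 ± 0.32 in deficient, glucose-only and glutamine-only medium. INCENP, the scaffold of the passenger complex, had 9.11, 16.9 and 5.44 in deficient, 20.5, 22.005 and 18.8 in glucose-only, 8.12, 14.4 and 17.7 in glutamine-only and 35.7, 39.5 and 39.4 in full libraries. It changed by -1.90 in deficient and -1.50 in glutamine-only medium; its glucose-only call (-0.87 ± 0.31, adjusted p = 0.043) ended without full A, B or C or glucose-only A, B or C (adjusted p between 0.0717 and 0.113). The complex's kinase AURKB changed by -2.25, -1.17 and -1.35, and its survivin subunit BIRC5 by -2.55, -1.11 and -1.50, in deficient, glucose-only and glutamine-only medium. CENPA, the histone H3 variant that marks centromeres, was low, with 3.90, 0 and 3.11 in deficient, 9.64, 5.24 and 2.35 in glucose-only, 7.22, 7.70 and 4.66 in glutamine-only and 15.9, 15.04 and 15.6 in full libraries. It reached the test only through the full libraries, so that its difference from them was built into the filter; its changes were -2.60 ± 0.51 (adjusted p = 9.78e-05) in deficient, -1.45 ± 0.51 (adjusted p = 0.039) in glucose-only and -1.16 ± 0.51 (adjusted p = 0.104) in glutamine-only medium, and the glucose-only call ended without full A, B or C or glucose-only B or C (adjusted p between 0.0779 and 0.197).

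**Figure D3:**
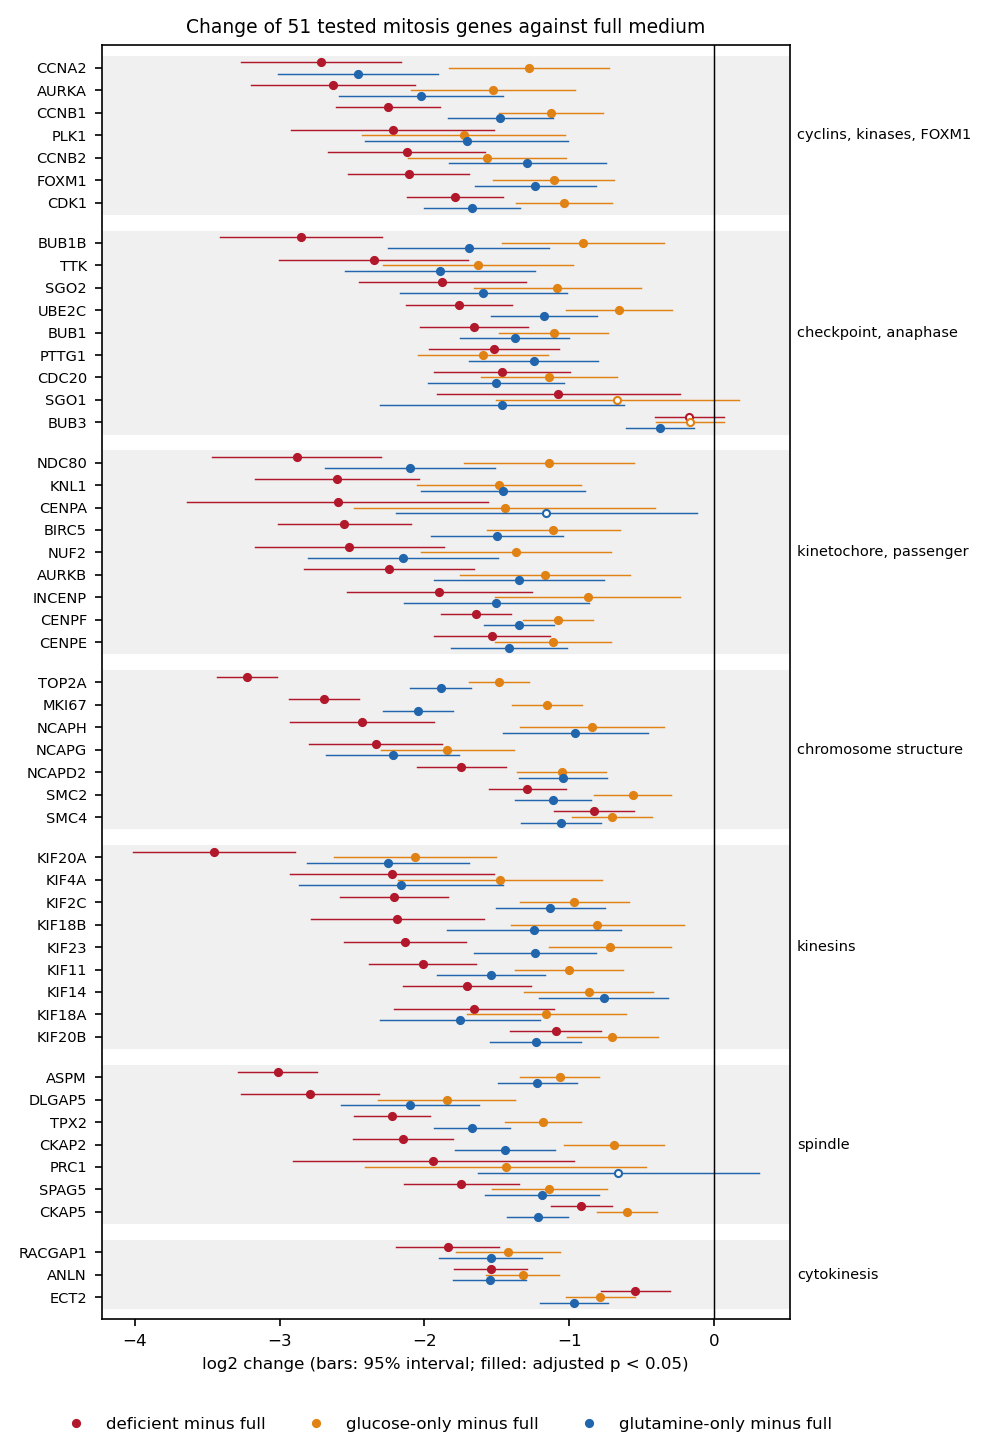
Log2 change of each tested member against full medium in deficient, glucose-only and glutamine-only libraries (points, 95% intervals as bars, filled where the adjusted p from limma is under 0.05), grouped by role. All points lie left of 0, KIF20A lies farthest left in deficient medium at -3.45, and the open points are BUB3, SGO1, CENPA and PRC1.

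Chromosome structure genes held some of the steepest and some of the shallowest falls. All 7 were lower in all 3 media, with medians of -2.34 in deficient, -1.05 in glucose-only and -1.11 in glutamine-only libraries. TOP2A, the topoisomerase that untangles sister chromatids, had 62.5, 57.96 and 60.6 in deficient, 196, 192 and 226 in glucose-only, 152, 164 and 147 in glutamine-only and 575, 540.5 and 605 in full libraries. No library of 1 medium overlapped another medium, and the order was deficient, glutamine-only, glucose-only, full. Its change was -3.23 ± 0.10 (adjusted p = 1.77e-20) in deficient, -1.48 ± 0.10 (adjusted p = 4.47e-12) in glucose-only and -1.89 ± 0.10 (adjusted p = 2.32e-14) in glutamine-only medium. MKI67, whose Ki-67 protein coats mitotic chromosomes and is a routine proliferation marker in breast tumours, had 65.1, 100.2 and 83.1 in deficient, 249, 247 and 221 in glucose-only, 125, 122 and 138 in glutamine-only and 546, 525 and 527 in full libraries. Its 4 media did not overlap either, and the changes were -2.69 ± 0.12 (adjusted p = 3.51e-17) in deficient, -1.15 ± 0.12 (adjusted p = 1.78e-08) in glucose-only and -2.04 ± 0.12 (adjusted p = 1.16e-13) in glutamine-only medium. Condensin, the ring complex that compacts chromosomes, has the ATPase subunits SMC2 and SMC4. SMC4 had 74.2, 70.03 and 89.3 in deficient, 90.3, 89.1 and 75.3 in glucose-only, 62.2, 75.1 and 61.5 in glutamine-only and 128, 129 and 161 in full libraries. SMC4 had the smallest change of the group in deficient medium, -0.83 ± 0.13 (adjusted p = 8.03e-06), with -0.70 ± 0.13 in glucose-only and -1.06 ± 0.13 in glutamine-only medium. Its 3 restricted media ran close together, although the glutamine-only libraries lay under the glucose-only ones. In GENCODE 29 25.6% of its exonic bases are shared with genes on the other strand, TRIM59 and IFT80. SMC2 had 55.97, 48.3 and 49.7 in deficient, 85.5, 77.5 and 94.1 in glucose-only, 54.1, 61.6 and 58.7 in glutamine-only and 126, 117 and 138 in full libraries. Changes of SMC2 were -1.29 ± 0.13, -0.56 ± 0.13 and -1.11 ± 0.13 in deficient, glucose-only and glutamine-only medium. The glucose-only libraries were above the other restricted ones for SMC2. Among the condensin I subunits, NCAPG had 16.9, 22.9 and 17.1 in deficient, 28.9, 17.8 and 37.6 in glucose-only, 20.7, 19.3 and 21.4 in glutamine-only and 102, 79.9 and 118 in full libraries. NCAPH had 9.11, 6.04 and 6.99 in deficient, 20.5, 27.2 and 24.7 in glucose-only, 18.9, 20.2 and 27.96 in glutamine-only and 42.3, 47.9 and 41.3 in full libraries. NCAPD2 had 44.3, 45.9 and 42.7 in deficient, 87.9, 56.6 and 75.3 in glucose-only, 76.7, 68.4 and 72.7 in glutamine-only and 182, 145 and 129 in full libraries. NCAPG fell about as far in each restricted medium (-2.34 ± 0.22, -1.84 ± 0.22 and -2.22 ± 0.22 in deficient, glucose-only and glutamine-only libraries), but 33.1% of its exonic bases lie opposite LCORL in GENCODE 29. NCAPH and NCAPD2 were lowest in the deficient libraries, without overlap, at -2.43 ± 0.24 and -1.74 ± 0.15 against full medium. The glucose-only call of NCAPH (-0.84 ± 0.24, adjusted p = 0.0124) ended without full B or glucose-only A (adjusted p between 0.0576 and 0.0604).

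Of the mitotic kinesins 9 of 9 tested were lower in all 3 media, with medians of -2.14 in deficient, -0.96 in glucose-only and -1.24 in glutamine-only libraries. KIF20A, which carries the passenger complex to the midzone in anaphase, had 9.11, 3.62 and 8.54 in deficient, 20.5, 16.8 and 19.99 in glucose-only, 12.6, 19.3 and 18.6 in glutamine-only and 71.4, 84.6 and 93.6 in full libraries. It had the largest change of all members in deficient medium, -3.45 ± 0.27 (adjusted p = 1.71e-11), and the largest of the kinesins in glucose-only (-2.06 ± 0.27) and glutamine-only medium (-2.25 ± 0.27). Deficient libraries of KIF20A did not reach the single-nutrient ones, which overlapped. KIF11, or Eg5, the motor that separates spindle poles, had 19.5, 26.6 and 35.7 in deficient, 59.02, 59.7 and 45.9 in glucose-only, 40.6, 33.7 and 37.3 in glutamine-only and 123, 94.9 and 114 in full libraries. Changes of KIF11 were -2.01 ± 0.18, -0.9995 ± 0.18 and -1.54 ± 0.18 in deficient, glucose-only and glutamine-only medium. The kinesin with the most reads, KIF20B, had 65.1, 49.5 and 53.6 in deficient, 89.1, 54.5 and 81.1 in glucose-only, 52.3, 49.1 and 50.3 in glutamine-only and 115, 126 and 119 in full libraries. KIF20B had the smallest fall in deficient medium (-1.09 ± 0.15, adjusted p = 8.45e-07). Its deficient, glucose-only and glutamine-only libraries lay close, with 1 glucose-only library at the level of the other media. KIF14, a motor of late cytokinesis, had 27.3, 14.5 and 16.3 in deficient, 38.5, 29.3 and 35.3 in glucose-only, 34.3, 47.2 and 30.8 in glutamine-only and 59.5, 55.5 and 76.1 in full libraries. The deficient libraries of KIF14 were under all others, and its change in glutamine-only medium, -0.76 ± 0.22 (adjusted p = 0.0109), ended as a call without full C or glutamine-only C (adjusted p between 0.0662 and 0.0734). KIF23, the motor of centralspindlin, had 10.4, 12.1 and 14.8 in deficient, 28.9, 36.7 and 38.8 in glucose-only, 27.1, 22.2 and 22.4 in glutamine-only and 62.2, 56.4 and 54.1 in full libraries. Changes of KIF23 were -2.14 ± 0.21 in deficient, -0.72 ± 0.21 (adjusted p = 0.0115) in glucose-only and -1.24 ± 0.21 in glutamine-only medium. Its glucose-only call ended without full A or glucose-only A (adjusted p between 0.0575 and 0.0655). KIF4A, a motor on chromosome arms, had 13.02, 4.83 and 6.99 in deficient, 9.64, 16.8 and 15.3 in glucose-only, 13.5, 6.74 and 5.59 in glutamine-only and 44.96, 35.7 and 38.5 in full libraries; the 3 restricted media overlapped and full libraries stood apart. A near copy of it, KIF4B, stayed at or under 2.82 in every library. The microtubule depolymerases KIF2C and KIF18A changed by -2.21 and -1.66 in deficient medium, and KIF18B by -2.19; the glucose-only call of KIF18B (-0.81 ± 0.29, adjusted p = 0.0456) ended without full A or B or glucose-only A or B (adjusted p between 0.106 and 0.201). KIF15, a reserve motor for KIF11, was at or under 2.10 in every library.

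Spindle microtubule proteins fell too, CKAP5 by the least in deficient and glucose-only medium. All 7 tested were lower in deficient and in glucose-only medium and 6 in glutamine-only medium, with medians of -2.15, -1.14 and -1.22. The 7 include PRC1, whose difference from the full libraries was built into the filter. CKAP5, or ch-TOG, the microtubule polymerase that cells also use outside mitosis, had 141, 144 and 146 in deficient, 177, 195 and 166 in glucose-only, 124, 117 and 108 in glutamine-only and 270.4, 286 and 259.6 in full libraries. The 4 media did not overlap, and the glutamine-only libraries were the lowest. Its changes were -0.92 ± 0.10 (adjusted p = 1.6e-08) in deficient, -0.60 ± 0.10 (adjusted p = 6.89e-05) in glucose-only and -1.22 ± 0.10 (adjusted p = 2.45e-10) in glutamine-only medium. ASPM, a spindle pole protein, had 28.6, 37.4 and 45.04 in deficient, 164, 132 and 136 in glucose-only, 121, 134 and 132 in glutamine-only and 296, 278 and 333 in full libraries. Glucose-only and glutamine-only libraries overlapped at less than the full level and the deficient libraries were far under both. ASPM changed by -3.01 ± 0.13 (adjusted p = 4.1e-17) in deficient, -1.07 ± 0.13 (adjusted p = 6.17e-07) in glucose-only and -1.22 ± 0.13 (adjusted p = 5.23e-08) in glutamine-only medium. TPX2, which activates Aurora A on the spindle, had 36.4, 33.8 and 42.7 in deficient, 74.7, 80.7 and 79.96 in glucose-only, 55.02, 54.9 and 56.9 in glutamine-only and 183, 168 and 186 in full libraries, 4 separate levels with the deficient one lowest, and changes of -2.23 ± 0.13, -1.18 ± 0.13 and -1.67 ± 0.13 in deficient, glucose-only and glutamine-only medium. DLGAP5, which stabilises kinetochore fibres, had 10.4, 12.1 and 21.7 in deficient, 28.9, 30.4 and 24.7 in glucose-only, 30.7, 18.3 and 22.4 in glutamine-only and 116, 108 and 87.1 in full libraries. DLGAP5 had the largest changes of the group in glucose-only (-1.85 ± 0.23) and glutamine-only medium (-2.10 ± 0.23). CKAP2, a microtubule-associated protein of the spindle, had 22.1, 16.9 and 20.96 in deficient, 57.8, 55.5 and 55.3 in glucose-only, 26.2, 35.6 and 38.2 in glutamine-only and 88.6, 90.2 and 95.4 in full libraries. SPAG5, or astrin, a spindle and kinetochore protein, had 20.8, 19.3 and 16.3 in deficient, 26.5, 31.4 and 29.4 in glucose-only, 27.96, 33.7 and 23.3 in glutamine-only and 72.7, 58.3 and 65.1 in full libraries. Both were lowest in the deficient libraries, with changes of -2.15 ± 0.17 and -1.74 ± 0.19 against full medium. PRC1, the crosslinker of the central spindle, was low, with 2.60, 1.21 and 4.66 in deficient, 6.02, 7.33 and 1.18 in glucose-only, 8.12, 9.63 and 5.59 in glutamine-only and 13.9, 13.2 and 11.01 in full libraries, and passed the filter through the full libraries alone. Its change was -1.94 ± 0.47 (adjusted p = 0.00117) in deficient, -1.44 ± 0.47 (adjusted p = 0.0275) in glucose-only and -0.66 ± 0.47 (adjusted p = 0.353) in glutamine-only medium, and the glucose-only call ended without full A, B or C or glucose-only C (adjusted p between 0.052 and 0.21). In GENCODE 29 57.6% of its exonic bases belong on the same strand to another gene model, and 62.2% of those of NUSAP1 do, which can take reads from both. HMMR was between 1.80 and 10.3 and NUSAP1 between 0 and 6.58 over the 12 libraries. All media overlapped for NUSAP1, while the glutamine-only libraries of HMMR lay under its full ones.

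All 3 cytokinesis genes fell in all 3 restricted media. ANLN, or anillin, the scaffold of the contractile ring, had 91.1, 78.5 and 70.7 in deficient, 93.95, 92.2 and 92.9 in glucose-only, 87.5, 66.5 and 85.7 in glutamine-only and 231, 225 and 247 in full libraries. Its changes were -1.54 ± 0.12 (adjusted p = 2.19e-11) in deficient, -1.32 ± 0.12 (adjusted p = 3.05e-09) in glucose-only and -1.55 ± 0.12 (adjusted p = 8.61e-11) in glutamine-only medium, and deficient libraries overlapped the glutamine-only ones. RACGAP1, a subunit of centralspindlin, had 28.6, 25.4 and 20.96 in deficient, 30.1, 37.7 and 32.9 in glucose-only, 31.6, 28.9 and 31.7 in glutamine-only and 104, 80.8 and 90.8 in full libraries. Changes of RACGAP1 were -1.84 ± 0.17, -1.42 ± 0.17 and -1.54 ± 0.17 in deficient, glucose-only and glutamine-only medium. ECT2, which acts at the cell equator in cytokinesis, had 117, 121 and 135 in deficient, 116, 107 and 92.9 in glucose-only, 92.01, 98.2 and 86.7 in glutamine-only and 179, 168 and 198 in full libraries. Here the deficient libraries were above those of both single-nutrient media and under the full ones. ECT2 changed by -0.54 ± 0.12 (adjusted p = 0.000279) in deficient, -0.79 ± 0.12 (adjusted p = 8.4e-06) in glucose-only and -0.97 ± 0.12 (adjusted p = 2.6e-07) in glutamine-only medium.

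Many members were lower still where the second nutrient was missing too. Of the 51 tested members 34 were lower in deficient than in glucose-only medium, that is on loss of glucose with glutamine already absent, against 20.1% of all tested genes, and none was higher. In deficient against glutamine-only medium, loss of glutamine with glucose already absent, 27 were lower, against 19.9% of all tested genes, and 2 were higher, against 21.6%. The median log2 change was -0.84 against glucose-only and -0.56 against glutamine-only medium, while all genes had 0.00 and 0.01. The 2 comparisons share the deficient libraries, and their difference is the comparison of the single-nutrient media given further on. At least 2-fold lower were 23 members in deficient against glucose-only (8.31% of all tested genes) and 10 against glutamine-only medium (8.28%). Here the scale matters as well. With equal totals the median of all genes was -0.17 and -0.26, and 63.4% and 75.04% of all called genes were lower, against 46.4% and 48.0% on the deposited scale; 43 and 32 members were then lower and none was higher. With equal totals of nuclear protein-coding reads 69.3% and 64.8% of called genes and 45 and 30 members were lower. In 24 members the deficient level was lower past the threshold than in both single-nutrient media, and in 14 it was so against neither. How many of all tested genes did either was not counted, so these counts have no share to stand beside.

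**Figure D4:**
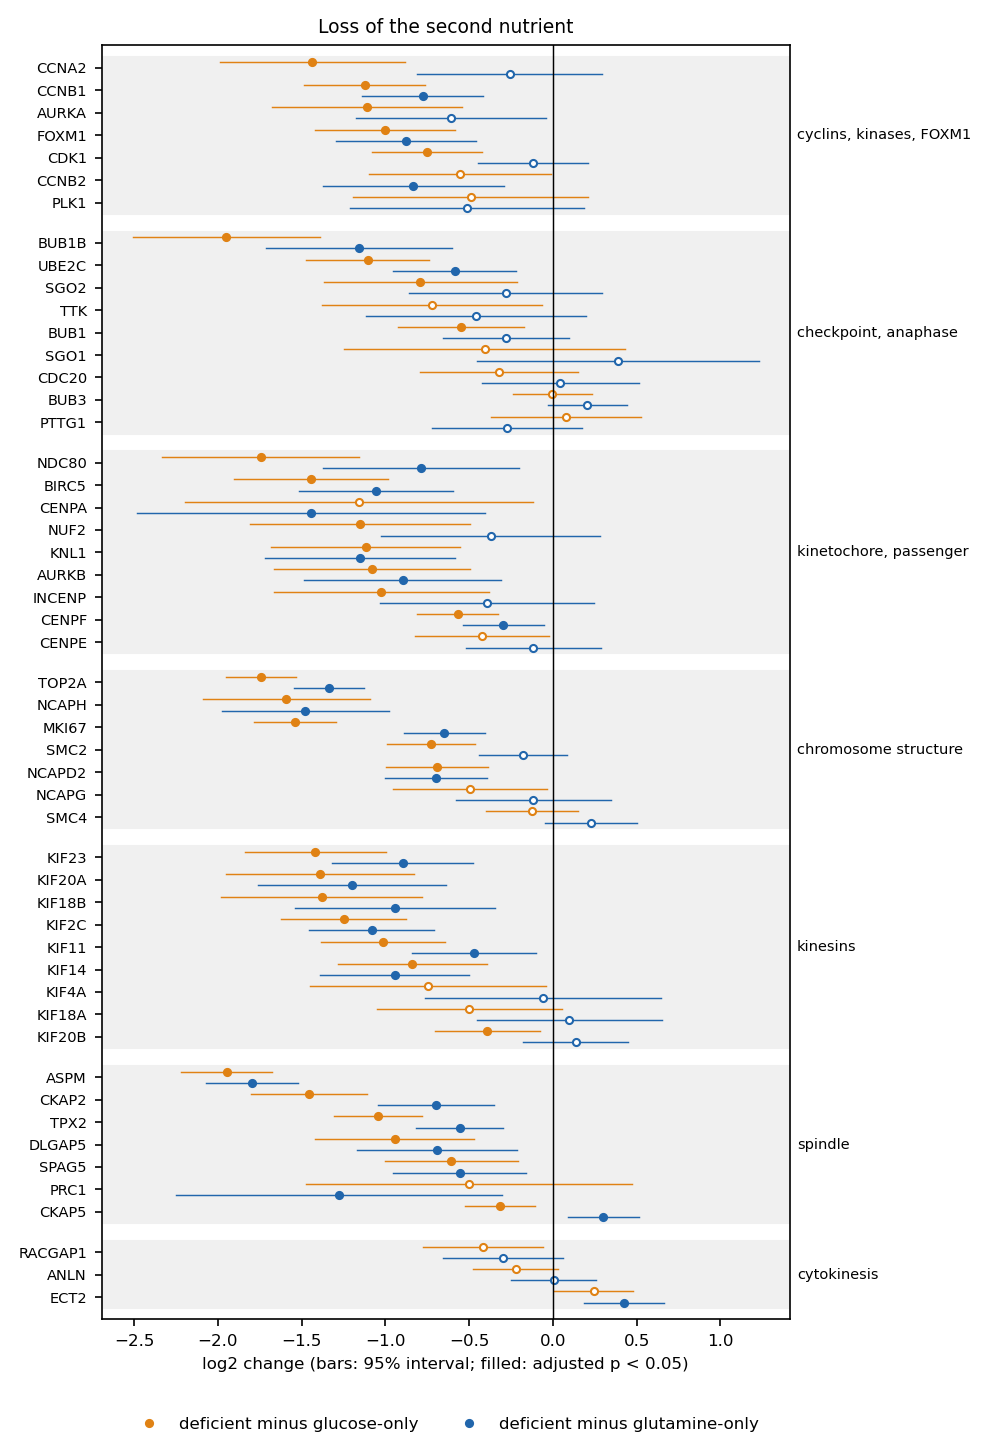
Log2 change in deficient medium against glucose-only and against glutamine-only medium for each tested member (points, 95% intervals as bars, filled where the adjusted p from limma is under 0.05), grouped by role. BUB1B and ASPM lie farthest left against glucose-only medium and ASPM against glutamine-only medium, and the filled points right of 0 are ECT2 and CKAP5, both against glutamine-only medium.

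The deepest further falls against glucose-only medium were in ASPM, BUB1B, NDC80 and TOP2A, and against glutamine-only medium in ASPM, NCAPH and CENPA. ASPM changed by -1.95 ± 0.13 (adjusted p = 1.54e-12) in deficient against glucose-only and -1.80 ± 0.13 (adjusted p = 1.15e-11) against glutamine-only medium, and its deficient libraries did not overlap either. For BUB1B the changes were -1.95 ± 0.27 (adjusted p = 1.34e-06) and -1.16 ± 0.27 (adjusted p = 0.0012), and for TOP2A -1.74 ± 0.10 (adjusted p = 4.13e-14) and -1.34 ± 0.10 (adjusted p = 1.85e-11), against glucose-only and glutamine-only medium, again without overlap. NDC80 changed by -1.74 ± 0.29 (adjusted p = 1.48e-05) against glucose-only medium, and by -0.79 ± 0.29 (adjusted p = 0.0286) against glutamine-only medium, a call that ended without deficient A or glutamine-only A or C (adjusted p between 0.0557 and 0.232). The condensin subunit NCAPH fell against glucose-only (-1.59 ± 0.24) and glutamine-only medium (-1.48 ± 0.24), and so did KIF20A (-1.39 ± 0.27 and -1.20 ± 0.27), KIF2C (-1.25 ± 0.18 and -1.08 ± 0.18), KNL1 (-1.12 ± 0.28 and -1.15 ± 0.28), FOXM1 (-1.004 ± 0.20 and -0.88 ± 0.20) and CCNB1 (-1.12 ± 0.18 and -0.78 ± 0.18). KIF23 had the largest fall of the kinesins against glucose-only medium, -1.42 ± 0.21 (adjusted p = 2.37e-06). By role, 6 of 7 spindle proteins, 7 of 9 kinetochore genes, 7 of 9 kinesins, 5 of 7 cyclin and kinase genes, 5 of 7 chromosome structure genes, 4 of 9 checkpoint genes and 0 of 3 cytokinesis genes were lower in deficient than in glucose-only medium. CENPA, which rests on few reads, changed by -1.44 ± 0.51 (adjusted p = 0.0237) against glutamine-only medium, a call that ended without deficient B or glutamine-only A or B (adjusted p between 0.0691 and 0.224).

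A second set had no call on loss of the second nutrient. ANLN, NCAPG, KIF4A, TTK, PLK1, CDC20, PTTG1, SMC4, KIF18A, CENPE and RACGAP1 passed in neither comparison with a single-nutrient medium. For ANLN the difference was -0.22 against glucose-only medium (95% interval -0.47 to 0.03) and 0.01 against glutamine-only medium (-0.25 to 0.26). For PTTG1 it was 0.08 (-0.37 to 0.52) and -0.27 (-0.72 to 0.18), and for PLK1 -0.49 (-1.19 to 0.21) and -0.51 (-1.21 to 0.19), so that these intervals still allow a sizeable fall for PLK1. CDK1 and CCNA2 were lower than in glucose-only medium, at -0.75 ± 0.16 and -1.44 ± 0.27, while against glutamine-only medium the differences were -0.12 (-0.45 to 0.21) and -0.26 (-0.81 to 0.29). ECT2 and CKAP5 were higher in deficient than in glutamine-only medium, at 0.42 ± 0.12 (adjusted p = 0.00425) and 0.30 ± 0.10 (adjusted p = 0.0198). The scale decides these calls: with equal totals they were 0.14 (adjusted p = 0.469) and 0.02 (adjusted p = 0.919), with quantile normalization 0.26 (adjusted p = 0.0828) and 0.12 (adjusted p = 0.395), and with equal totals of nuclear protein-coding reads 0.26 (adjusted p = 0.0741) and 0.13 (adjusted p = 0.318). The call of CKAP5 also ended without deficient C or glutamine-only C (adjusted p between 0.051 and 0.0919). Against glucose-only medium CKAP5 was lower, at -0.32 ± 0.10 (adjusted p = 0.0139), a call that ended without glucose-only B (adjusted p = 0.0791).

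The single nutrients differed from each other in fewer members. In glucose-only against glutamine-only medium 11 of 51 members were higher, against 5.05% of all tested genes, and none was lower, against 8.26%; the median was 0.35, beside 0.00 for all genes. MKI67 had the clearest difference, 0.89 ± 0.12 (adjusted p = 3.07e-06), and CCNA2 the largest, 1.18 ± 0.27 (adjusted p = 0.003). CKAP2 (0.75 ± 0.17, adjusted p = 0.00251), CDK1 (0.64 ± 0.16, adjusted p = 0.00743), CKAP5 (0.62 ± 0.10, adjusted p = 7.65e-05), SMC2 (0.55 ± 0.13, adjusted p = 0.00404) and TPX2 (0.49 ± 0.13, adjusted p = 0.00951) were higher with glucose too, and the 3 glucose-only libraries of each lay above the 3 glutamine-only ones. TOP2A was higher by 0.40 ± 0.10 (adjusted p = 0.00726), a call that ended without glucose-only C (adjusted p = 0.0561). NDC80 (0.96 ± 0.29, adjusted p = 0.0231) ended without glucose-only A or B or glutamine-only B or C (adjusted p between 0.06 and 0.095), KIF20B (0.53 ± 0.15, adjusted p = 0.0198) ended without glucose-only A or C or glutamine-only B or C (adjusted p between 0.0569 and 0.143), and KIF11 (0.54 ± 0.18, adjusted p = 0.0449) ended as a call without glucose-only A or B or glutamine-only A, B or C (adjusted p between 0.0563 and 0.159). The other 40 had no call, and over all 51 the difference was negative in 8. No call does not mean a small difference: the 9 tested checkpoint and anaphase genes, none of them called, ran from -0.35 to 0.80. Some members lay near 0, as FOXM1 at 0.13 (95% interval -0.29 to 0.55) and PLK1 at -0.02 (-0.72 to 0.68). With equal totals 5 members were higher, with DESeq2 on the recovered reads 4, and with equal totals of nuclear protein-coding reads 16. The lower share of all called genes was 62.1% on the deposited scale, 78.7% with equal totals and 43.2% with equal totals of nuclear protein-coding reads.

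The interaction compares the loss of both nutrients with the sum of the single losses on the log2 scale (deficient minus glucose-only minus glutamine-only plus full). It is 0 where the fold changes multiply, and positive where the level without both nutrients is higher than the single losses would multiply to. It was positive past the threshold in 19 of 51 members, against 15.5% of all tested genes, and negative in 1, against 11%; the members' median was 0.62, beside 0.06 for all genes. All 3 cytokinesis genes were among them: ANLN (1.33 ± 0.18, adjusted p = 1.39e-06), ECT2 (1.21 ± 0.16, adjusted p = 2.06e-06) and RACGAP1 (1.13 ± 0.25, adjusted p = 0.00102). NCAPG had the largest value, 1.72 ± 0.32 (adjusted p = 0.000161), and SMC4 the next of the chromosome structure genes, 0.93 ± 0.19 (adjusted p = 0.000522). Positive values were also found for PTTG1 (1.32 ± 0.31), CDC20 (1.18 ± 0.32), DLGAP5 (1.16 ± 0.33), CKAP5 (0.90 ± 0.15), CENPE (0.99 ± 0.28), CENPF (0.78 ± 0.17), CDK1 (0.92 ± 0.23), KIF18A (1.25 ± 0.38), KIF20B (0.84 ± 0.22) and TPX2 (0.62 ± 0.18). The calls of KIF4A (1.42 ± 0.49, adjusted p = 0.0306) ended without deficient A, full A or C, glucose-only A or glutamine-only B or C (adjusted p between 0.0526 and 0.103), of CCNA2 (1.02 ± 0.38, adjusted p = 0.0472) without deficient B or C, full A, B or C, glucose-only A or C or glutamine-only A or C (adjusted p between 0.0671 and 0.108), of BUB1 (0.83 ± 0.26, adjusted p = 0.018) without deficient A, glucose-only A or glutamine-only C (adjusted p between 0.0511 and 0.0637), and of MKI67 (0.51 ± 0.17, adjusted p = 0.0255) without deficient B, full A, glucose-only C or glutamine-only A or B (adjusted p between 0.052 and 0.0896).

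ASPM alone had a negative value past the threshold, -0.73 ± 0.19 (adjusted p = 0.00474): its means were 37.03 ± 8.21 in deficient, 144 ± 17.2 in glucose-only, 129 ± 7.11 in glutamine-only and 302 ± 27.99 in full libraries (SD, n = 3 each). TOP2A and BIRC5, at 0.15 (95% interval -0.15 to 0.44) and 0.05 (-0.60 to 0.70), lay near the product of the single losses, as did CKAP2 at -0.01 (-0.50 to 0.48). In those no departure from the product was called, but the interval of BIRC5 also holds values as large as the called TPX2 (0.62). The wider intervals of the low members, such as TTK at 1.17 (0.24 to 2.10) and PLK1 at 1.22 (0.23 to 2.21), allow values as large as the called ones. With equal totals of nuclear protein-coding reads, a scale chosen after seeing the data, 11 members were positive and 2 negative, the added one being NCAPH, and the members' median was 0.33, beside -0.23 for all genes. Of all called genes 41.5% were negative on the deposited scale, 54.3% with quantile normalization and 70.7% with those totals.

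**Figure D5:**
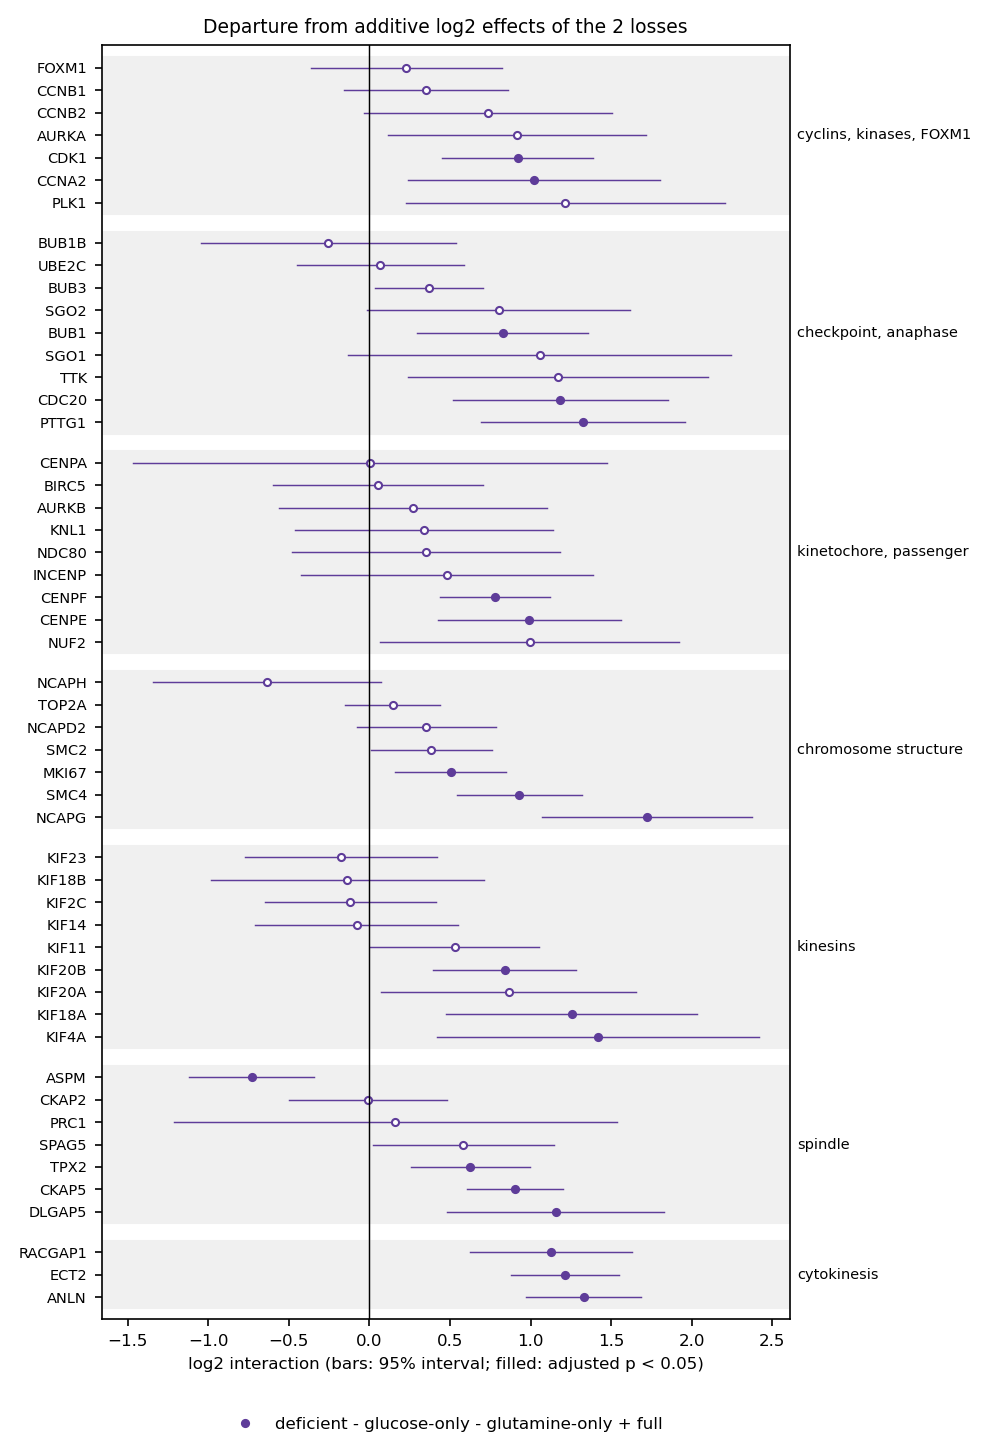
Interaction of the 2 losses on the log2 scale for each tested member (points, 95% intervals as bars, filled where the adjusted p from limma is under 0.05), grouped by role. Most points lie right of 0 with NCAPG farthest at 1.72, all 3 cytokinesis genes are filled, and ASPM at -0.73 is the filled point left of 0.

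Other genes of the mitotic pathway were taken from lists and are given by count, beside the 25.5%, 13.5% and 11.6% of all tested genes that were lower in deficient, glucose-only and glutamine-only medium. Those lists too were chosen with earlier results of these data known. Of 26 other tested condensin, spindle and cytokinesis genes 18 were lower in deficient, 15 in glucose-only and 16 in glutamine-only than in full medium, and none was higher. GTSE1, a microtubule-binding protein of G2 and mitosis, had 5.21, 4.83 and 7.76 in deficient, 19.3, 11.5 and 14.1 in glucose-only, 20.7, 12.5 and 21.4 in glutamine-only and 47.6, 40.4 and 46.8 in full libraries, a change of -2.75 ± 0.28 (adjusted p = 3.77e-09) in deficient against full medium. The microtubule destabiliser STMN1 had 173, 192 and 209 in deficient, 161, 161 and 194 in glucose-only, 146, 157 and 143 in glutamine-only and 306, 311 and 294 in full libraries. STMN1 was lower in all 3 media, with changes of -0.67, -0.82 and -1.03 in deficient, glucose-only and glutamine-only libraries. Of 27 other kinetochore and centromere genes 18 were lower and 1 higher in deficient, 6 lower in glucose-only, and 14 lower and 1 higher in glutamine-only medium. CENPI, a subunit of the constitutive centromere network, had 2.60, 3.62 and 6.21 in deficient, 24.1, 14.7 and 27.04 in glucose-only, 21.6, 17.3 and 19.6 in glutamine-only and 56.9, 57.3 and 51.4 in full libraries. CENPI changed by -3.51 ± 0.28 (adjusted p = 2.39e-11) in deficient medium. The gene that was higher in deficient and in glutamine-only medium was MIS12, of the outer kinetochore, at 0.88 and 0.57. With equal totals its deficient value was no longer past the threshold (0.49), and the glutamine-only call ended without full A or B or glutamine-only A, B or C (adjusted p between 0.0702 and 0.157).

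Cohesin and the anaphase-promoting complex, which cells also use outside mitosis, had median log2 changes of -0.17 and -0.14 in deficient medium. Of 13 cohesin genes 6 were lower and 2 higher in deficient, 4 lower in glucose-only and 7 lower in glutamine-only medium. The ring subunit RAD21 had 237, 227 and 284 in deficient, 259, 254 and 208 in glucose-only, 216, 222 and 232 in glutamine-only and 358, 352 and 365 in full libraries. Changes of RAD21 were -0.53 ± 0.10, -0.58 ± 0.10 and -0.68 ± 0.10 in deficient, glucose-only and glutamine-only medium. PDS5A, a cohesin regulator, was higher in deficient medium, at 0.74 ± 0.10 (adjusted p = 5.76e-07), and so was the loader NIPBL, at 0.48 ± 0.11 (adjusted p = 0.00062) on the deposited scale and 0.08, no longer a call, with equal totals. Of 14 subunits and regulators of the anaphase-promoting complex 3 were lower and 1 higher in deficient, 1 lower in glucose-only and 3 lower in glutamine-only medium. CDC27 had 116, 121 and 114 in deficient, 78.3, 78.6 and 63.5 in glucose-only, 98.3, 94.4 and 84.8 in glutamine-only and 134, 120.3 and 133 in full libraries, and it was the 1 that was lower in glucose-only medium (-0.81 ± 0.12, adjusted p = 8.22e-06).

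In the mitotic entry switch some genes were lower and some higher. Of 13 tested genes 8 were lower and 3 higher in deficient, where 26.3% of all tested genes were higher, 9 lower in glucose-only and 10 lower in glutamine-only medium. CKS2, a small CDK-binding subunit, had 181, 197 and 179 in deficient, 31.3, 26.2 and 28.2 in glucose-only, 39.7, 44.3 and 49.4 in glutamine-only and 61.5, 74.3 and 76.1 in full libraries. Deficient libraries were the highest and glucose-only the lowest, without overlap between any media. It changed by 1.39 ± 0.14 (adjusted p = 2.31e-09) in deficient, -1.27 ± 0.14 (adjusted p = 5.92e-08) in glucose-only and -0.66 ± 0.14 (adjusted p = 0.00084) in glutamine-only medium, and its interaction was 3.31 ± 0.20 (adjusted p = 4.77e-13). The kinase WEE1, which inhibits CDK1, had 124, 97.8 and 111 in deficient, 51.8, 50.3 and 55.3 in glucose-only, 67.7, 55.9 and 55.9 in glutamine-only and 87.9, 76.1 and 90.8 in full libraries; it was higher in deficient than in glucose-only (1.06 ± 0.13, adjusted p = 2.78e-07) and glutamine-only medium (0.88 ± 0.13, adjusted p = 6.55e-06). Against full medium it was at 0.38 ± 0.13 (adjusted p = 0.0203), a call that ended without deficient A or full B (adjusted p between 0.102 and 0.105) and that turned to -0.021 with equal totals. PPP2R2A, a regulatory subunit of the phosphatase that opposes CDK1, was at 0.61 ± 0.15 (adjusted p = 0.000939) in deficient medium, and 0.21 (adjusted p = 0.301) with equal totals. PBK and MELK, kinases high in dividing cells, changed by -2.75 and -2.13 on the log2 scale in deficient medium.

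Regulators of the late cell cycle wave were mixed. Of 17 tested DREAM, MuvB, E2F and RB genes 9 were lower and 1 higher in deficient, 3 lower in glucose-only, and 7 lower and 1 higher in glutamine-only medium. MYBL2, which encodes B-MYB, had 5.21, 6.04 and 2.33 in deficient, 15.7, 18.9 and 10.6 in glucose-only, 7.22, 9.63 and 10.3 in glutamine-only and 40.3, 41.4 and 39.4 in full libraries. Changes of MYBL2 were -2.98 ± 0.32 (adjusted p = 9.81e-09) in deficient, -1.40 ± 0.32 (adjusted p = 0.00203) in glucose-only and -2.06 ± 0.32 (adjusted p = 1.98e-05) in glutamine-only medium. Full libraries of MYBL2 were far above the rest. RBL1, or p107, had 3.90, 13.3 and 6.99 in deficient, 54.2, 36.7 and 45.9 in glucose-only, 17.1, 24.1 and 16.8 in glutamine-only and 40.3, 38.5 and 43.1 in full libraries. It was low without both nutrients and near the full level in glucose-only medium, with changes of -2.34 ± 0.28, 0.14 ± 0.28 and -1.05 ± 0.28 in deficient, glucose-only and glutamine-only medium. The repressor E2F7 was the 1 that was higher, at 0.69 ± 0.10 (adjusted p = 8.15e-07) in deficient and 0.52 ± 0.10 (adjusted p = 0.000173) in glutamine-only medium. Of 6 G1 cyclins and kinases 3 were lower and 2 higher in deficient, 1 lower and 1 higher in glucose-only, and 3 lower and 1 higher in glutamine-only medium: CCND1 was at -1.07 ± 0.09 (adjusted p = 1.36e-10) and CCND2 at 0.86 ± 0.15 (adjusted p = 3.38e-05) in deficient medium.

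DNA replication genes, expressed earlier in the cycle, were mostly lower in deficient and glutamine-only medium. Of 30 tested, 21 were lower in deficient, 5 in glucose-only and 23 in glutamine-only than in full medium, and none was higher. Medians were -1.15, -0.35 and -0.98. In glucose-only against glutamine-only medium 13 of 30 were higher, against 5.05% of all tested genes. In deficient against glutamine-only medium 2 were lower and 2 higher, against 19.9% and 21.6%. RRM2, the ribonucleotide reductase subunit of S phase, had 6.51, 7.24 and 10.9 in deficient, 45.8, 37.7 and 50.6 in glucose-only, 23.5, 24.1 and 23.3 in glutamine-only and 104, 109 and 105 in full libraries. Changes of RRM2 were -3.57 ± 0.20 (adjusted p = 6.58e-15) in deficient, -1.24 ± 0.20 (adjusted p = 2.87e-05) in glucose-only and -2.12 ± 0.20 (adjusted p = 2.32e-09) in glutamine-only medium. MCM3, of the replicative helicase, had 57.3, 45.9 and 55.1 in deficient, 92.7, 108 and 107 in glucose-only, 54.1, 52.01 and 53.1 in glutamine-only and 126, 147 and 141 in full libraries and was at -1.37 in deficient and -1.36 in glutamine-only medium, while its glucose-only call (-0.42 ± 0.13, adjusted p = 0.0167) ended without full B or C or glucose-only A (adjusted p between 0.0588 and 0.084). The difference between the replication genes and the members was not tested.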

How the data were processed

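The authors deposited 1 table of signal: for each gene and library, a read number over that library's size factor. Per the submitters' processing notes FastQC, HISAT2, Subread, DESeq2 and GRCh38.p14 were used; versions, annotation and strand setting are not given in the sources used here. In every library 100% of values were whole reads within 0.01 reads. Per the labels the libraries are stranded and depleted of ribosomal RNA. Genes with a value of at least 10 in at least 3 of 12 libraries were tested with limma-trend 3.58.1 (R 4.3.3) on log2(value + 1), so that folds of low genes are understated, in 1 model with a mean per medium; Benjamini-Hochberg adjusted p under 0.05 over 9270 genes was the threshold. Changes are given with their standard error, two-sided. Alternatives were edgeR 4.0.16 and DESeq2 1.42.0 on the recovered reads, pseudocounts of 0.5 and 8, other filters and scales, a block for the letter, and each library left out; equal totals of nuclear protein-coding reads was chosen after seeing the data. The test was checked on simulated data for deficient against full medium alone, with 1 setting of the spread between libraries for all genes. That check does not cover the other comparisons or the interaction. No pair of libraries of a medium agreed within sampling noise (chi-square per degree of freedom 1.17 to 5.56). Correlations between libraries of the same letter were near 0, which does not settle whether the letters mark shared cultures. Members and lists were chosen with earlier results of these data known. Named with every library were, in each role group, the 3 members with the highest mean and those with the largest and smallest change in each comparison, and in other lists up to 4 by mean and 2 by change. MIS12 was named after its values were seen. Exon overlap was read from GENCODE 29, and promoters and positions from RefSeq, GRCh38.p14.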

Additional observations from a re-analysis of the deposited data

Results flagged for a closer look

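In 20 members the effect of losing glucose differed according to whether glutamine was present, by the interaction term in limma at an adjusted p under 0.05 over all genes. A positive value means that the log2 change on losing glucose was less negative, or more positive, without glutamine than with it. In ECT2 and PTTG1 the change without glutamine was not a fall, at 0.24 and 0.08. Positive were NCAPG (1.72), KIF4A (1.42), ANLN (1.33), PTTG1 (1.32), KIF18A (1.25), ECT2 (1.21), CDC20 (1.18), DLGAP5 (1.16), RACGAP1 (1.13), CCNA2 (1.02), CENPE (0.99), SMC4 (0.93), CDK1 (0.92), CKAP5 (0.90), KIF20B (0.84), BUB1 (0.83), CENPF (0.78), TPX2 (0.62) and MKI67 (0.51). ASPM was negative (-0.73). Among all tested genes 15.5% were positive and 11% negative. Groups of 3 libraries were too small to look for single outlying libraries.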

How the results depend on the processing

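Over 6380 combinations of a member, a comparison and an alternative, 6035 kept their side of the threshold, 252 lost the call, 93 gained one and 0 called changes turned round. Among the 6035 were 117 whose sign changed while neither value passed. Counts of members called moved by over 1.5 times in these cases. A mean of at least 100 left 8 members to test, of which 7 passed in deficient, 7 in glucose-only and 8 in glutamine-only against full medium, 5 in deficient against glucose-only, 6 in deficient against glutamine-only, 3 in glucose-only against glutamine-only medium and 7 in the interaction. DESeq2 called 17 members in deficient against glutamine-only and 4 in glucose-only against glutamine-only medium, where limma called 29 and 11. Equal totals left 5 of the 11, an adjusted p under 0.01 left 18 of the 29, and equal totals of nuclear protein-coding reads called 13 members in the interaction, where the deposited scale had 20. The cause of these moves was not tested beyond the smaller number of genes under the higher mean. No count moved by over 1.5 times when 1 library was left out, although 37 of 242 single calls of members were lost. Turned round were 3 genes of the other lists: WEE1 in deficient against full medium was -0.021 with equal totals, RAD21 in deficient against glucose-only medium was -0.27 with quantile normalization, and KIF5B there was -0.32 with quantile normalization and -0.23 with equal totals of nuclear protein-coding reads.

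Over 18 pairs of libraries with the same letter, deviations from the medium means correlated between -0.029 and 0.067, with a median of 0.010. Over 36 pairs of different letters they correlated between -0.073 and 0.039, with a median of -0.0055. Values this near 0 cannot settle whether the letters mark a shared culture or day. With a replicate block 50, 48 and 49 members passed in deficient, glucose-only and glutamine-only against full medium, 34 and 29 in deficient against glucose-only and glutamine-only, 11 in glucose-only against glutamine-only medium and 22 in the interaction. Depth limits the low members: with 875033 to 1473587 reads per library, a normalized count of 5 is a few reads, and for PLK1 the 95% interval in deficient against glucose-only medium ran from -1.19 to 0.21. On the recovered reads edgeR called 5004, 2229 and 2446 of all genes in deficient, glucose-only and glutamine-only against full medium, where limma called 4804, 2124 and 2083.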

Other observations

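Values of 4 genes from the lists of other cell cycle genes follow, which are not the 4 largest interactions there. CKS2 had 185 ± 9.92 in deficient, 28.6 ± 2.58 in glucose-only, 44.5 ± 4.86 in glutamine-only and 70.6 ± 7.97 in full libraries (SD, n = 3 each), an interaction of 3.31 ± 0.20. CDK6, a G1 kinase, had 206 ± 23.5 in deficient, 106 ± 7.72 in glucose-only, 77.5 ± 9.36 in glutamine-only and 126 ± 0.669 in full libraries, an interaction of 1.65 ± 0.17 (adjusted p = 1.54e-08) in limma. CCND2, a G1 cyclin, had 51.2 ± 4.93, 64.8 ± 6.30, 64.7 ± 7.38 and 27.7 ± 2.88 in deficient, glucose-only, glutamine-only and full libraries, so that it was higher in each restricted medium than in full medium, with an interaction of -1.53 ± 0.22 (adjusted p = 5.29e-06). The microtubule tip protein MAPRE1 had 120.1 ± 6.30 in deficient, 74.96 ± 8.45 in glucose-only, 83.02 ± 10.9 in glutamine-only and 137 ± 7.87 in full libraries, with an interaction of 1.40 ± 0.17 (adjusted p = 4.71e-07). These 4 genes were picked after their values were seen.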
